A study of Danio rerio with 6 samples.

Results

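The genes described here encode the subunits of the proteasome, the protease complex that breaks down ubiquitin-tagged proteins. They were the 53 rows, of 31701 in the table, whose gene symbol begins with psm, a letter from a to g and a digit. One of them, psmc3ip, encodes a recombination protein and no proteasome subunit, and was set aside, which left 52 genes. Of these, 16 encode the core particle (9 alpha and 7 constitutive beta genes), 31 encode regulatory parts (7 ATPases, 15 non-ATPase genes, 5 activators, 1 inhibitor and 3 assembly chaperones) and 5 encode inducible beta subunits. The classes follow the gene symbols, so the 15 non-ATPase genes are all those named psmd, assembly factors such as psmd9 among them. RNA was sequenced from the apical part of the ventricle of adult zebrafish of the AB strain, 7 days after the apex was resected (7 days post amputation, dpa). Both groups received doxycycline (DOX) from the day before injury. The tbx20-overexpressing fish carried a cmlc2:TetON-3G driver, which is active in cardiomyocytes through the cmlc2 promoter, together with a TRE3G responder that expresses tbx20 linked to mCherry under DOX, while control fish carried the responder alone. Each group had 3 libraries, in which tissue of 6 (replicate 1), 8 (replicate 2) and 8 (replicate 3) hearts was pooled, so a library is a mixture of animals and of every cell type in the apex, and differences in the number of cells of a type cannot be told apart from differences in RNA per cell.

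The core particle is a barrel of stacked rings. The outer rings are made of alpha subunits, which form the gate, and the inner rings of beta subunits, of which Psmb5, Psmb6 and Psmb7 carry the active sites. A regulatory particle of ATPases, which unfold the substrate, and of non-ATPase subunits, which bind and remove ubiquitin, caps the barrel. Other caps (the Psme proteins) open the gate without ubiquitin. In immune cells, and in other cells exposed to interferon, inducible beta subunits replace the constitutive catalytic ones, and the peptides such a particle releases are loaded on class I MHC molecules. In heart muscle the proteasome turns over sarcomere proteins and damaged proteins.

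Library totals were between 12993988 and 14002211 counts in tbx20-overexpressing and between 13218054 and 17754483 counts in control libraries. The TMM normalization factors were higher in tbx20-overexpressing libraries (1.02, 1.08 and 1.31) than in control libraries (0.920, 0.748 and 1.008), and mitochondrially encoded genes took 11.1% to 15.01% of the counts in tbx20-overexpressing and 16.3% to 20.9% in control libraries. The tbx20 row had 133, 19.05 and 37.2 CPM (TMM-normalized counts, scaled to a common library size) in tbx20-overexpressing libraries 1, 2 and 3, against 41.3, 8.59 and 20.3 CPM in control libraries 1, 2 and 3. It was higher in each of the 3 pairs of libraries with the same number, but the groups overlapped. Its log2 fold change was 1.43 (SE 0.75, unadjusted p = 0.0893 and adjusted p = 0.649 in edgeR), so tbx20 itself was not called. With the replicate number as a block in the fit it was 1.24 (adjusted p = 0.0479 in edgeR). Replicate numbers marked a shared deviation in both groups, so values are also given within these pairs. All 16 cardiomyocyte marker genes found were detected, with a summed level of 49318 to 88984 CPM in tbx20-overexpressing and 77561 to 131755 CPM in control libraries, and 4 of the 16 were called lower (cmlc1, actc1a, atp2a2a and tpm4a), against 5.56% of all genes tested. The log2 fold change was above 0 in 2 of the 16, highest in nppb (0.58), and in pair 1, 6 of the 16 were higher. With total-count scaling 5 of the 16 were above 0, and their median was -0.15. Of 16 tested leukocyte markers 4 were called higher (ptprc, csf1rb, spi1b and cd4-1), against 3.27% of all genes, with sums of 1113 to 1694 CPM in tbx20-overexpressing and 1016 to 1288 CPM in control libraries, while the B cell markers cd79a and cd79b had at most 18 counts in a library and were not tested. With the replicate number as a block in the fit, 7 of the cardiomyocyte markers were called lower and 6 of the leukocyte markers higher, where 14.1% of all genes were called in either direction. A gene was called at an unadjusted p under 0.05 with an absolute log2 fold change above 0.5, in edgeR's quasi-likelihood test on all genes.

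To compare the levels of genes with one another, the deposited FPKM values, which are divided by gene length, were read within each library. The highest core gene in all 6 libraries was psmb4, the beta7 subunit, which had 106, 104 and 143 FPKM in tbx20-overexpressing and 85.9, 101 and 132 FPKM in control libraries. The lowest position of the ring in all 6 libraries was alpha2, with 29.0, 29.9 and 38.7 FPKM of psma2 in tbx20-overexpressing and 22.9, 24.4 and 35.9 FPKM in control libraries. Thus subunits that are present in equal numbers in the assembled barrel differed 3.48-fold to 4.14-fold in FPKM between the extremes. A second psma2-like row, si:rp71-45k5.4, which the gene name table lists under PSMA2, had 43.4, 44.4 and 51.2 FPKM in tbx20-overexpressing and 30.4, 40.9 and 48.8 FPKM in control libraries. When it was added, alpha2 was no longer the lowest position, the range was 2.89-fold to 3.20-fold, and the lowest position was beta4 (psmb2) in 5 libraries and beta2 (psmb7) in replicate 3 of tbx20-overexpressing hearts. The alpha1 position was shared by psma6a, psma6b and psma6l, which averaged 23.3, 18.7 and 10.4 FPKM over the 6 libraries. The alpha4 position was represented by the row named psma8, which averaged 67.2 FPKM and for which RefSeq lists psma7 as a synonym.

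**Figure D1:**
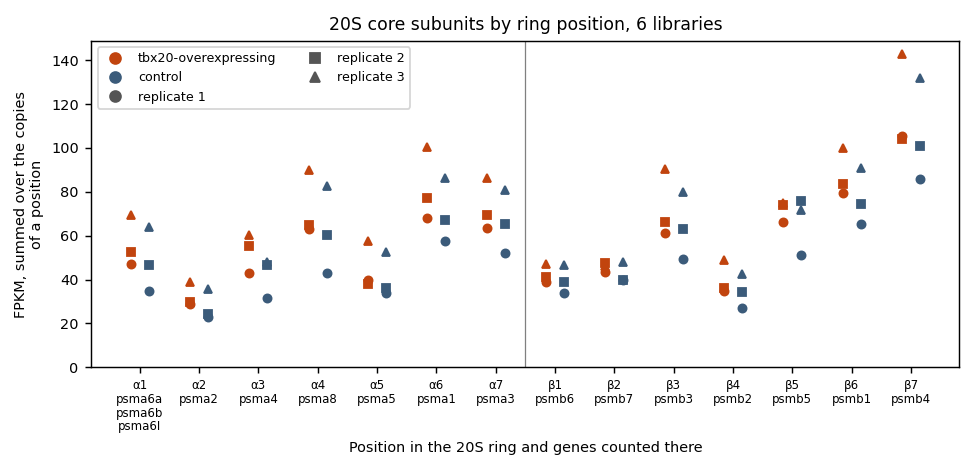
FPKM of the core subunits by position in the alpha ring (left) and the beta ring (right), 1 point per library, tbx20-overexpressing in orange and control in blue, with the marker shape giving the replicate number and copies of a position summed. The beta7 position (psmb4) was the highest in all 6 libraries, and the groups overlapped at every position. The alpha2 position was the lowest in all 6 as counted here, from psma2 alone without the second psma2-like row.

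Among the 16 core genes no gene was called in either direction, against 8.83% of the 15686 genes tested (5.56% lower and 3.27% higher). In edgeR 0 of the 16 had an unadjusted p under 0.05, against 9.23% of all genes. A total of 0 of 51 tested subunit genes had a Benjamini-Hochberg adjusted p under 0.05, as was so for all genes (0%). DESeq2 also gave 0 subunit genes at an adjusted p under 0.05, where it called 1.52% of all genes, and called 1 of the 51 (psme4a) at the unadjusted threshold, against 9.26% of all genes. The log2 fold changes of the core genes lay between -0.26 (psmb6) and 0.04 (psma6l), with a median of -0.19, while the median of all genes tested was 0.04. Values below 0 were found in 15 of 16 core and 44 of 51 subunit genes, against 45.7% of all genes. The catalytic beta1 gene psmb6 (ENSDARG00000002240) had 47.9, 48.2 and 45.4 CPM in tbx20-overexpressing libraries, against 46.1, 65.5 and 58.4 CPM in control libraries. Its groups overlapped, and its log2 fold change was -0.26 (SE 0.19, adjusted p = 0.773 in edgeR). For psmb5 (ENSDARG00000075445), the beta5 subunit that cuts after hydrophobic residues, the values were 85.2, 90.1 and 74.9 CPM in tbx20-overexpressing and 72.8, 132 and 92.99 CPM in control libraries. Replicate 2 of control stood above the other 5 libraries, and the log2 fold change was -0.25 (SE 0.24, adjusted p = 0.861 in edgeR). The beta2 gene psmb7 (ENSDARG00000037962) had 52.8, 54.9 and 44.0 CPM in tbx20-overexpressing libraries and 53.8, 66.2 and 59.2 CPM in control libraries. It was the only core gene that was lower in all 3 pairs, with a log2 fold change of -0.24 (SE 0.18, adjusted p = 0.790 in edgeR).

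In the alpha ring, psma3 (alpha7) had the lowest fold change, with 81.6 ± 2.61 CPM in tbx20-overexpressing and 95.1 ± 20.7 CPM in control hearts (SD, n = 3 each) and a log2 fold change of -0.22 (SE 0.21). The alpha1 copy psma6l had the highest, 0.04 (SE 0.43), with 11.4, 14.002 and 18.7 CPM in tbx20-overexpressing libraries, against 6.09, 14.2 and 22.3 CPM in control libraries. In the constitutive beta ring psmb2 (beta4) had the fold change closest to 0, -0.16 (SE 0.21), at 57.6 ± 3.47 CPM in tbx20-overexpressing and 64.3 ± 14.5 CPM in control hearts (SD, n = 3 each). In these genes the control libraries spread more widely than the tbx20-overexpressing ones. In 13 of 16 core genes and 30 of 51 subunit genes all 3 tbx20-overexpressing libraries lay inside the range of the 3 control libraries, as they did in 15.1% of all genes tested. These counts were made after the values were seen, and the genes move together across libraries, so they are not separate observations. The summed core level was 893, 911 and 940.2 CPM in tbx20-overexpressing libraries, a mean of 915 ± 23.9 CPM (SD, n = 3), against 792, 1210.4 and 1111 CPM in control libraries, a mean of 1038 ± 219 CPM (SD, n = 3). The groups overlapped.

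**Figure D2:**
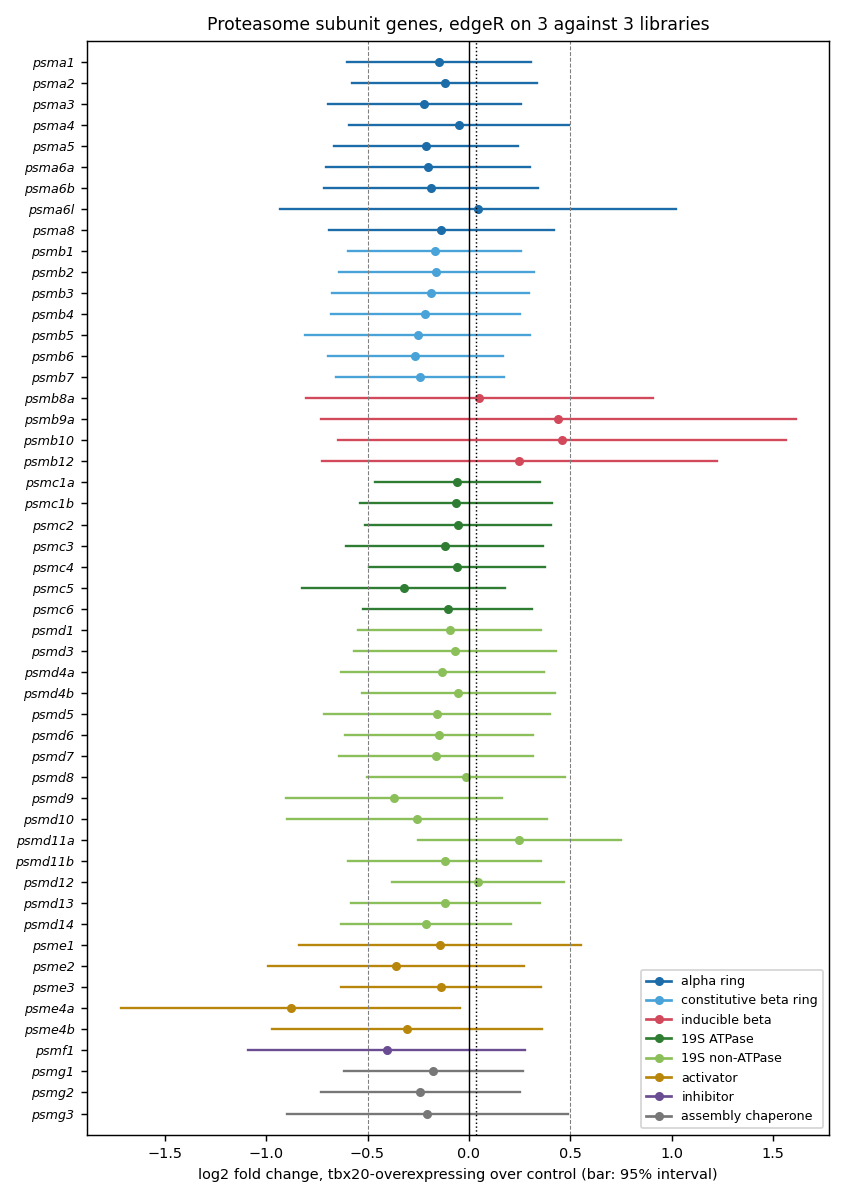
Log2 fold change of each of the 51 tested subunit genes, tbx20-overexpressing over control, with its 95% interval from edgeR, grouped by role. The dashed lines mark -0.5 and 0.5 and the dotted line the median of all genes, 0.04; 44 of the 51 points lie below 0, and the interval of psme4a alone lies wholly on one side of 0.

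The precision of these values sets how much change they leave room for. The 95% interval of the log2 fold change lay within -1 and 1 for 45 of 51 subunit genes, 15 of them core genes, against 48.9% of all genes tested. With the replicate number as a block, it lay within -0.5 and 0.5 for 13 of 51, against 13.6% of all genes. For the others the interval reached beyond 0.5 in at least 1 direction.

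The pairs of libraries did not move alike. In pair 1, 43 of 51 subunit genes were higher in the tbx20-overexpressing library, with a median log2 difference of 0.17. In pair 2 only psmb10 was higher, and the median was -0.33, and in pair 3 the median was -0.22 with 6 genes higher. The same medians over all genes were 0.01, 0.04 and 0.01. As many as 37 of 51 genes, 15 of 16 in the core and 22 of 31 in the regulatory class, were higher in pair 1 and lower in pairs 2 and 3, a pattern found in 11.2% of all genes. It was noticed in these values and was not tested further. Genes lower in all 3 pairs numbered 8 of 51 (psmb7, psmd5, psmd9, psme4a, psme4b, psmf1, psmg1 and psmg2), against 18.8% of all genes, and 1 of 51, psmb10, was higher in all 3, against 20.8%. In 0 of 51 genes did the groups not overlap, against 14.7% of all genes. In edgeR 1 of the 51 had an unadjusted p under 0.05, against 9.23% of all genes.

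**Figure D3:**
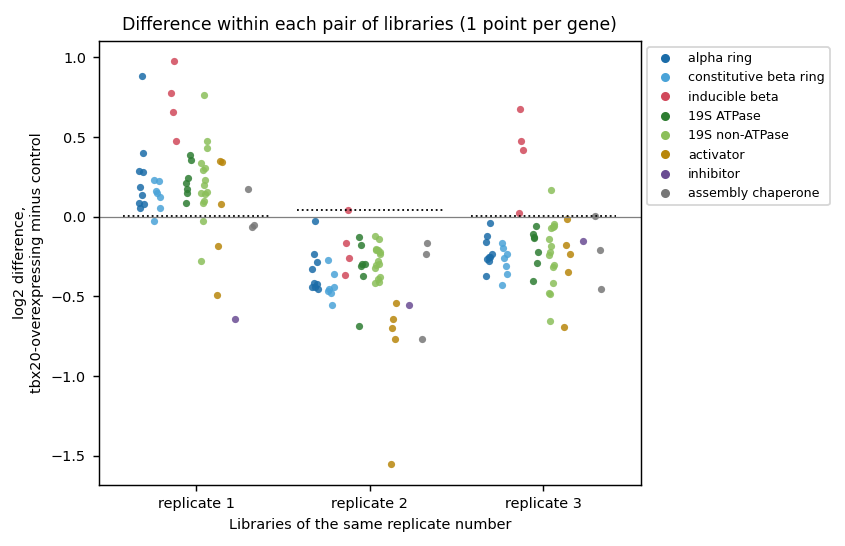
Log2 difference, tbx20-overexpressing minus control library of the same replicate number, 1 point for each of the 51 subunit genes, with the median of all genes as a dotted line. Most genes lie above 0 in replicate 1 and below 0 in replicates 2 and 3, whereas 4 inducible genes in red lie above 0 in replicates 1 and 3.

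The direction also depended on the scaling. With total-count scaling, which takes no account of the TMM factors, the median of all genes tested moved to 0.38, and those of the core, regulatory and inducible genes were 0.19, 0.22 and 0.74, with 48 of 51 genes above 0. It called 13.4% of all genes, 1.64% lower and 11.7% higher, and 1 of 51 subunit genes, psmd11a. Under both scalings the core and regulatory medians were below that of all genes, and the inducible one was above it. As a share of all counts, the 52 genes took 0.253%, 0.255% and 0.337% in tbx20-overexpressing libraries and 0.201%, 0.233% and 0.297% in control libraries.

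Of all classes, the 7 ATPase genes of the regulatory particle had the median closest to that of all genes. Their log2 fold changes ranged from -0.32 (psmc5) to -0.05 (psmc2), with a median of -0.06. None of the 7 was called, against 8.83% of all genes. The lowest, psmc5 (ENSDARG00000015315), had 88.4, 77.8 and 78.4 CPM in tbx20-overexpressing libraries and 76.3, 125 and 104 CPM in control libraries, a log2 fold change of -0.32 (SE 0.22, adjusted p = 0.760 in edgeR). For psmc2 the values were 63.5, 63.4 and 72.3 CPM in tbx20-overexpressing and 53.6, 78.0 and 75.3 CPM in control libraries, and its log2 fold change was -0.05 (SE 0.20). The copies psmc1a and psmc1b were both near 0, at -0.06 each.

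Of the 15 non-ATPase genes none was called, against 8.83% of all genes, and their median log2 fold change was -0.12. The highest level of any subunit gene in CPM was that of psmd1, a scaffold of the base, with 139 ± 7.19 CPM in tbx20-overexpressing and 148 ± 24.4 CPM in control hearts (SD, n = 3 each) and a log2 fold change of -0.09 (SE 0.20). The deubiquitinase gene psmd14 had 43.0 ± 1.82 CPM in tbx20-overexpressing and 49.7 ± 7.74 CPM in control hearts (SD, n = 3 each) and a log2 fold change of -0.21 (SE 0.18). The ubiquitin receptor copies psmd4a and psmd4b were at -0.13 (SE 0.22) and -0.05 (SE 0.21). The assembly factor psmd9 (ENSDARG00000006300) had the lowest value of this class, -0.37 (SE 0.23, adjusted p = 0.736 in edgeR). It had 10.9, 14.5 and 13.5 CPM in tbx20-overexpressing libraries, against 13.2, 18.2 and 18.8 CPM in control libraries, and was lower in all 3 pairs although the groups overlapped.

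The lid subunit Rpn6 has the gene copies psmd11a (ENSDARG00000060150) and psmd11b (ENSDARG00000005134), whose fold changes had opposite signs. The psmd11a copy had 41.8, 28.5 and 31.3 CPM in tbx20-overexpressing libraries and 24.5, 33.0 and 27.9 CPM in control libraries, the highest log2 fold change among the regulatory genes at 0.25 (SE 0.22, adjusted p = 0.840 in edgeR). The psmd11b copy had 44.0, 30.5 and 30.2 CPM in tbx20-overexpressing and 35.6, 40.5 and 37.7 CPM in control libraries, a log2 fold change of -0.12 (SE 0.21). Neither differed by more than the spread between libraries. Their ratio within a library, which does not depend on scaling, was 0.603, 0.595 and 0.659 of psmd11a to psmd11b FPKM in tbx20-overexpressing libraries, against 0.438, 0.518 and 0.471 in control libraries. The groups of ratios did not overlap (3 libraries against 3 allow no exact permutation p below 0.1), as was so for 11.8% of 1517 pairs of a and b copies in the table. Of the 5 copy pairs compared here it was the only one. The other 4 ratios, of psma6a to psma6b, psmc1a to psmc1b, psmd4a to psmd4b and psme4a to psme4b, overlapped between the groups. Under total-count scaling psmd11a was called higher at 0.60 (unadjusted p = 0.0272 in edgeR), and without both libraries of number 1 its log2 fold change was -0.027. How reads that match both copies of a gene were counted is not given in the sources used here.

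Of 51 tested subunit genes 1 was called, a share below the 8.83% of all genes. It was psme4a (ENSDARG00000087911), a copy of the gene of the Psme4 activator. In mammals that activator opens the gate without ATP and is linked to the breakdown of acetylated histones. The psme4a gene had 29.3, 14.1 and 13.7 CPM in tbx20-overexpressing libraries 1, 2 and 3, against 41.3, 41.7 and 22.3 CPM in control libraries. It was lower in each pair, but replicate 1 of the tbx20-overexpressing group lay above replicate 3 of control. Its means were 19.1 ± 8.89 CPM in tbx20-overexpressing and 35.1 ± 11.1 CPM in control hearts (SD, n = 3 each) and a log2 fold change of -0.88 (SE 0.37) or 0.544-fold, with a 95% interval of 0.304-fold to 0.971-fold. The unadjusted p was 0.0416 and the adjusted p 0.514 in edgeR, and the two-sided exact permutation test on log2 CPM gave p = 0.2. With the replicate block the log2 fold change was -0.91, with an unadjusted p of 0.0041 and an adjusted p of 0.097 in edgeR. Among the alternatives the adjusted p of psme4a (edgeR or DESeq2) ran from 0.097 to 0.845. It ran up to 0.916 when the omission of both libraries of a number is counted as well. This gene was also the only one of 51 called with the block, against 14.1% of all genes. With the block 0 of 51 had an adjusted p under 0.05, against 0.536% of all genes. The call was lost without replicate 2 (-0.71) or 3 (-0.69) of the tbx20-overexpressing group, without replicate 1 (-0.74) or 2 (-0.75) of control, without both libraries of number 2 (-0.56), and under total-count scaling (-0.54). The part that the cell type markers given above play in it was not tested.

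The other copy, psme4b (ENSDARG00000018742), was more abundant, with 109.9, 52.0 and 87.9 CPM in tbx20-overexpressing libraries, against 125, 84.5 and 99.2 CPM in control libraries. It too was lower in each pair, with a log2 fold change of -0.30 (SE 0.29, adjusted p = 0.861 in edgeR), and was not called in either fit. The ratio of psme4a to psme4b in FPKM was 0.283, 0.288 and 0.166 in tbx20-overexpressing and 0.350, 0.523 and 0.237 in control libraries, lower in 3 of 3 pairs with overlapping groups. The gate openers psme1 and psme2, which form a ring together and are induced by interferon in mammals, were not called. The psme1 values were 60.0, 60.8 and 91.9 CPM in tbx20-overexpressing libraries and 47.0, 94.9 and 92.8 CPM in control libraries, a log2 fold change of -0.14 (SE 0.31). The psme2 values were 62.5, 53.4 and 85.7 CPM in tbx20-overexpressing libraries and 59.1, 90.7 and 109 CPM in control libraries, a log2 fold change of -0.36 (SE 0.28). The nuclear activator psme3 was at -0.14 (SE 0.22), with 38.4 ± 7.84 CPM in tbx20-overexpressing and 42.2 ± 6.72 CPM in control hearts (SD, n = 3 each).

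The inhibitor gene psmf1 (ENSDARG00000022652), whose product binds the core particle, had 16.8, 24.8 and 35.6 CPM in tbx20-overexpressing libraries 1, 2 and 3, against 26.2, 36.5 and 39.6 CPM in control libraries 1, 2 and 3. Each pair was lower, by 0.64, 0.56 and 0.15 on the log2 scale, and the groups overlapped. The unpaired log2 fold change was -0.41 (SE 0.30, adjusted p = 0.781 in edgeR). With the replicate block it was -0.45, with an unadjusted p of 0.0286 and an adjusted p of 0.223 in edgeR, under the size of 0.5 that a call needs. When tbx20-overexpressing replicate 3 was left out, psmf1 was called, at -0.72. Of the assembly chaperone genes, psmg1 and psmg2, whose products pair to build the alpha ring, were at -0.18 (SE 0.19) and -0.24 (SE 0.22) and lower in all 3 pairs, and psmg3 was at -0.21 (SE 0.30). None of the 3 was called, against 8.83% of all genes.

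**Figure D4:**
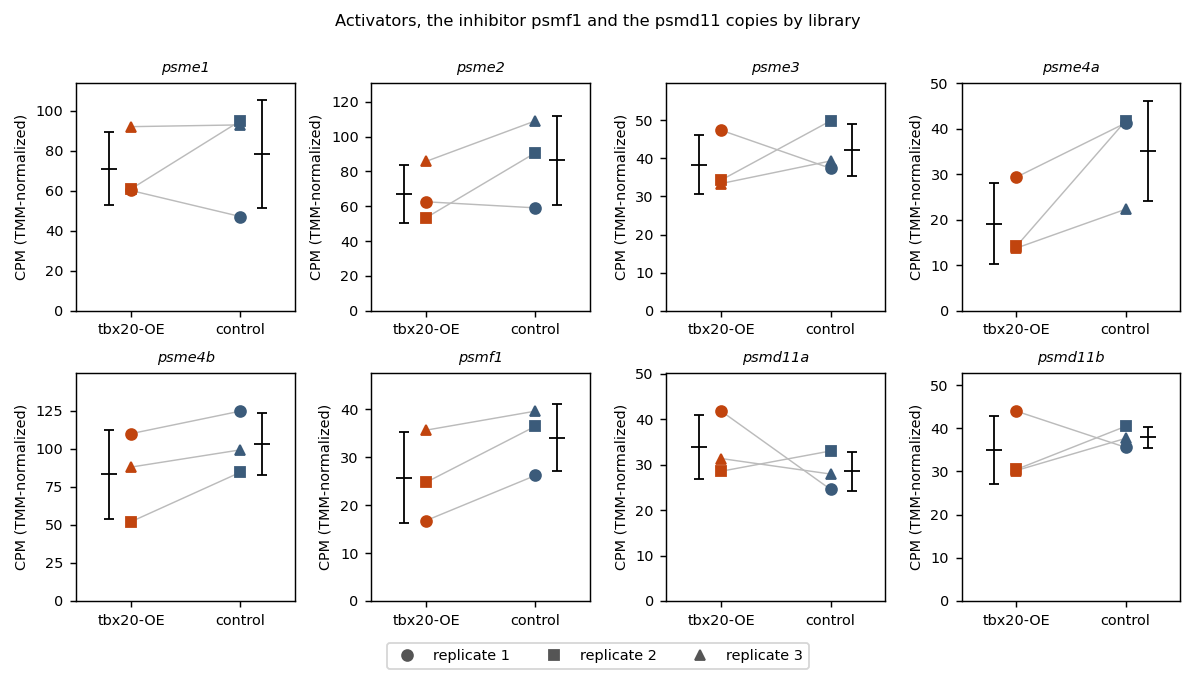
TMM-normalized CPM of the 5 activator genes, the inhibitor psmf1 and both psmd11 copies, tbx20-overexpressing at the left and control at the right of each panel, with lines between libraries of the same replicate number and bars for the mean ± SD (n = 3). The lines of psme4a, psme4b and psmf1 all run lower on the tbx20-overexpressing side, while those of the other genes run in both directions.

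The 5 inducible beta genes are psmb8a (beta5 type), psmb9a and psmb12 (beta1 type), psmb10 (beta2 type) and psmb11b, a copy of the beta5 type gene that in mammals is specific to the thymus. The row named psmb10 (ENSDARG00000001656) is listed as psmb13a in the gene name table, and a separate row in capitals, PSMB10, had 24.3, 22.4 and 39.9 CPM in tbx20-overexpressing and 19.7, 28.6 and 39.7 CPM in control libraries. In RefSeq's GRCz12tu annotation psmb13a, psmb8a, psmb12 and psmb9a lie next to one another, and the models of psmb13a and psmb8a, and of psmb8a and psmb12, overlap. How strand and overlap were handled in counting is not given in the sources used here, so reads of these genes may not be told apart. In psmb11b there were 0, 0 and 3 counts in tbx20-overexpressing and 0, 0 and 1 counts in control libraries, and it was not tested.

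No inducible gene was called, against 8.83% of all genes. All 4 tested ones had a log2 fold change above 0, as had 8510 of the 15686 genes tested, and their median was 0.34. The separate row PSMB10, which the symbol rule does not take, was at -0.03 (SE 0.32). The psmb8a (ENSDARG00000001303) values were 31.98, 34.2 and 53.2 CPM in tbx20-overexpressing libraries 1, 2 and 3, against 18.6, 44.1 and 52.3 CPM in control libraries 1, 2 and 3. Its log2 fold change was 0.05 (SE 0.38, adjusted p = 0.992 in edgeR). For psmb9a (ENSDARG00000000656) the values were 5.93, 6.70 and 17.6 CPM in tbx20-overexpressing and 3.71, 7.53 and 11.0 CPM in control libraries, a log2 fold change of 0.44 (SE 0.51, adjusted p = 0.901 in edgeR). Replicate 3 was the highest library of its group in both genes. The psmb10 row had 11.0, 10.9 and 25.7 CPM in tbx20-overexpressing libraries, against 5.52, 10.5 and 18.4 CPM in control libraries. It was the only subunit gene higher in all 3 pairs, with a log2 fold change of 0.46 (SE 0.48, adjusted p = 0.884 in edgeR), and with the replicate block 0.49 (unadjusted p = 0.0555 in edgeR). The psmb12 (ENSDARG00000031885) values were 8.85, 8.03 and 19.7 CPM in tbx20-overexpressing and 6.34, 9.64 and 14.7 CPM in control libraries, a log2 fold change of 0.25 (SE 0.43, adjusted p = 0.935 in edgeR). In each of the 4 genes the difference between the groups was smaller than the spread within them. Without replicate 3 of the tbx20-overexpressing group all 4 were below 0, between -0.29 (psmb12) and -0.083 (psmb10), and their median was -0.23. This leaves the control library of the same number in the comparison, and without both libraries of number 3 all 4 were above 0, between 0.087 (psmb12) and 0.45 (psmb10), with a median of 0.13.

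Each inducible gene was then set against the constitutive gene whose place its product takes, as a ratio of FPKM within a library. The ratio of psmb8a to psmb5 was 0.303, 0.306 and 0.574 in tbx20-overexpressing libraries 1, 2 and 3, against 0.206, 0.269 and 0.454 in control libraries 1, 2 and 3. That of psmb9a to psmb6 was 0.135, 0.152 and 0.425 in tbx20-overexpressing and 0.0877, 0.126 and 0.206 in control libraries, and that of psmb12 to psmb6 was 0.267, 0.240 and 0.626 in tbx20-overexpressing and 0.198, 0.212 and 0.364 in control libraries. The ratio of psmb10 to psmb7 was 0.174, 0.165 and 0.487 in tbx20-overexpressing libraries, against 0.0856, 0.133 and 0.260 in control libraries. In all 4 ratios the tbx20-overexpressing library was the higher of its pair in 3 of 3 pairs. The third libraries were the highest of both groups, and the groups overlapped. Agreement over the pairs was not particular to these 4 ratios. Those of psme1 to psme2 and of psmd11a to psmd11b were also higher in 3 of 3 pairs. Those of psme4a to psme4b and of psmb12 to psmb9a were higher in 0 of 3. The share over all ratios of genes was not computed. In pair 2 the log2 differences of psmb8a, psmb9a, psmb12 and psmb10 themselves were -0.37, -0.17, -0.26 and 0.04. Those of psmb5 and psmb6 were -0.55 and -0.44. No ratio was computed for the separate row PSMB10, whose log2 difference in pair 2 was -0.35, against -0.27 for psmb7. Summed over the class, there were 6.47, 6.56 and 12.4 inducible counts per 100 core counts in tbx20-overexpressing libraries, against 4.32, 5.93 and 8.69 in control libraries. The 4 ratios share libraries and, in part, genes, and are not independent. Over the same libraries the summed leukocyte markers were 1113, 1269 and 1694 CPM in tbx20-overexpressing and 1016, 1288 and 1034 CPM in control libraries, and the part they play in the ratios was not tested.

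**Figure D5:**
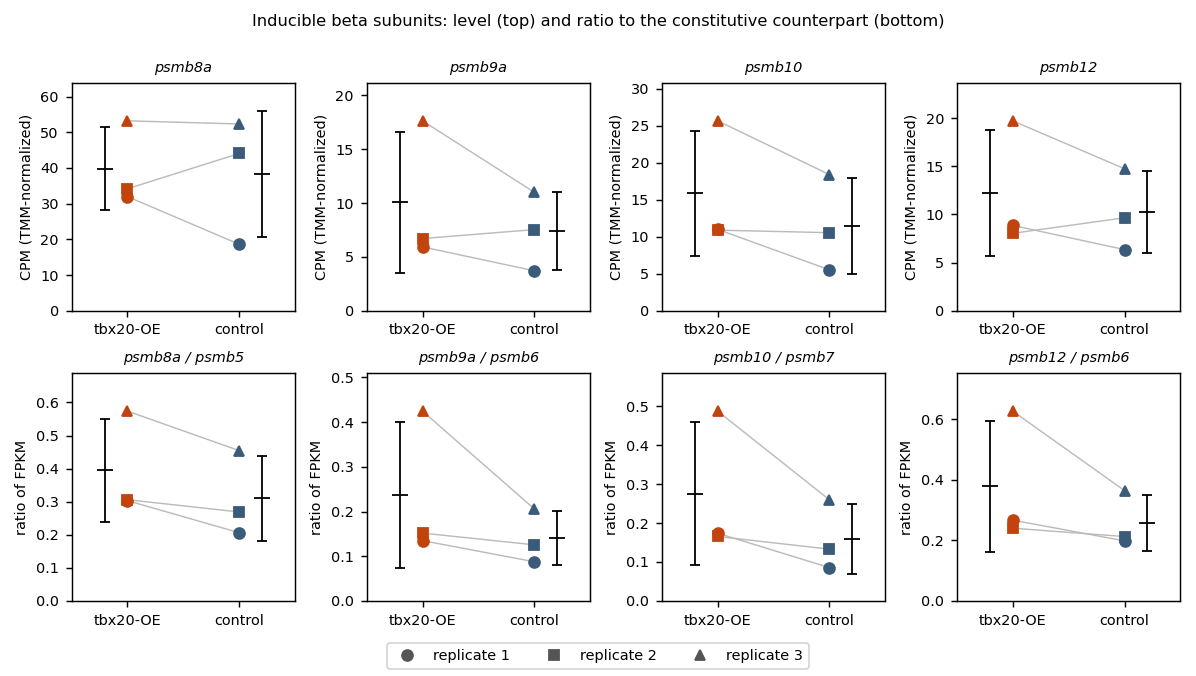
Inducible beta genes in TMM-normalized CPM (top) and as the FPKM ratio to their constitutive counterpart (bottom), tbx20-overexpressing at the left and control at the right of each panel, with lines between libraries of the same replicate number and bars for the mean ± SD (n = 3). All 3 lines of each ratio are higher on the tbx20-overexpressing side, and replicate 3 is the highest in both groups.

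Genes that work with the proteasome were read from lists. Of 11 partner and assembly genes found, 1 was called, a share near the 8.83% of all genes. It was zfand5b, a ubiquitin-binding protein that in mammals activates the proteasome and is induced in muscle wasting. It had 83.1, 77.8 and 50.9 CPM in tbx20-overexpressing libraries, against 139.6, 226 and 75.0 CPM in control libraries, a log2 fold change of -1.06 (SE 0.39, unadjusted p = 0.0242 and adjusted p = 0.435 in edgeR). Replicate 1 and replicate 2 of the tbx20-overexpressing group lay above replicate 3 of control, each pair was lower, and the call was lost without replicate 3 of the tbx20-overexpressing group (-0.86) or replicate 2 of control (-0.62). Its copy zfand5a was at -0.25 (SE 0.31), and the core assembly factor pomp at -0.05 (SE 0.21), with 49.6 ± 8.75 CPM in tbx20-overexpressing and 51.3 ± 7.91 CPM in control hearts (SD, n = 3 each). The median of the list was -0.04. None of the 14 ubiquitin and unfoldase genes was called, against 8.83% of all genes, and their median was -0.13. The ubiquitin fusion gene rps27a, which also encodes a ribosomal protein, was at -0.42 (SE 0.26), and the unfoldase gene vcp, at 331 ± 28.2 CPM in tbx20-overexpressing and 343 ± 36.6 CPM in control hearts (SD, n = 3 each), was at -0.05 (SE 0.20).

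In mammals the factor Nfe2l1 drives proteasome genes when proteasome activity falls, after cleavage by Ddi2. Of 13 tested genes around this factor and its relative Nfe2l2 none was called in the unpaired fit, against 8.83% of all genes. The median was -0.02. The copies nfe2l1a and nfe2l1b were at -0.17 and -0.30. The ddi2 gene had 28.8, 25.2 and 30.8 CPM in tbx20-overexpressing and 19.7, 19.3 and 22.1 CPM in control libraries. All tbx20-overexpressing libraries lay above the control ones. In 2 of the 13 genes the groups did not overlap, a share near the 14.7% of all genes tested. The log2 fold change of ddi2, 0.47 (SE 0.19, unadjusted p = 0.0346 and adjusted p = 0.483 in edgeR), was under the size for a call. The heme oxygenase gene hmox1a had 82.5, 50.9 and 209 CPM in tbx20-overexpressing libraries, against 31.3, 60.2 and 67.1 CPM in control libraries, a log2 fold change of 1.11 (SE 0.51, unadjusted p = 0.0583 in edgeR). With the replicate block it was called at 0.95 (adjusted p = 0.213 in edgeR), as 1 of the 13 genes, against 14.1% of all genes. When tbx20-overexpressing replicate 3 was left out, the value was 0.33, and without both libraries of number 3 it was 0.56. Other genes of high level in this list, txn, sqstm1 and nfe2l2a, were at 0.44, 0.31 and 0.28.

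In each of the next 3 lists 1 gene was called, a share near the 8.83% of all genes. Of 16 tested genes of class I antigen processing it was mhc1zca, a class I gene. It had 16.0, 13.7 and 9.32 CPM in tbx20-overexpressing libraries, all below the 20.8, 38.3 and 20.4 CPM of control libraries, with a log2 fold change of -1.03 (SE 0.32, adjusted p = 0.364 in edgeR). The groups did not overlap in 1 of the 16 genes, against 14.7% of all genes tested. With the replicate block mhc1uba was called as well (-0.58, adjusted p = 0.248 in edgeR, and -0.41 without the block, or -1.11 to -0.030 when 1 library was left out). The light chain genes b2m and b2ml were at -0.04 (SE 0.32) and -0.08 (SE 0.23), the peptide transporter gene tap1 was at -0.01 (SE 0.39), and the median of the list was -0.09. Of 14 tested interferon response genes it was socs1a, at 0.96 (SE 0.27, adjusted p = 0.332 in edgeR), and gbp1 was called with the block alone (0.63, adjusted p = 0.185 in edgeR). With the block 2 of 16 class I and 2 of 14 interferon response genes were called, against 14.1% of all genes. Without tbx20-overexpressing replicate 3 the unpaired log2 fold change of gbp1 was -0.12, and without both libraries of number 3 it was 0.34, against 0.83 with all libraries. The gbp1 values were 30.6, 26.7 and 107 CPM in tbx20-overexpressing and 21.5, 24.0 and 47.0 CPM in control libraries, the third library being the highest of each group as in the inducible subunit genes. The genes with the highest levels, stat1a, jak1 and jak2a, were at 0.25, 0.26 and 0.29, and the median of the list was 0.36. Of 12 tested muscle ubiquitin ligases it was asb2b, at -1.35 (SE 0.33, adjusted p = 0.283 in edgeR). The ligases trim63a and trim63b, known for marking sarcomere proteins for breakdown, were at -0.42 (SE 0.20) and -0.41 (SE 0.28) and lower in each pair, nedd4l was at -0.11, and the median of the list was -0.26.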

How the data were processed

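The authors trimmed reads with Trimmomatic 0.30, aligned them with HISAT2 2.0.1 to GRCz10 and deposited raw counts per gene and FPKM values, which equal the counts divided by exonic length and library total (190206 of 190206 recomputed within 0.006 plus a small fraction of the value). The counting tool and its use of strand and multi-mapped reads are not given in the sources used here. A column of exonic gene lengths in bases was used as deposited, and the KO and GO annotation columns were not used. Counts were fitted in R 4.3.3 with edgeR 4.0.16 (filterByExpr, TMM, quasi-likelihood F test, two-sided, Benjamini-Hochberg adjustment over 15686 genes). The standard error is the log2 fold change divided by the square root of F, and intervals are 95%. The procedure was tested on simulated data with 200 changed genes.

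Members and lists were chosen with earlier results of these data known. Full values are given for tested inducible genes, genes past the threshold in either fit, and the extremes of each class; genes chosen otherwise, such as psmb5, psmb7, psmd1 and psmd14, were chosen for their role. From each list the called genes and the 3 with the highest mean CPM are named (1 of these is not reported here), and nfe2l1a, nfe2l1b, ddi2, b2m, b2ml and tap1 for their role.

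Libraries of like number were taken as pairs. Their deviations from the group means correlated at 0.453, 0.409 and 0.469, and those of unlike numbers at most at -0.132. These values are across genes, which are not independent replicates. Deviations cancel out within a group, so the negative values follow in part from the positive ones and are not separate evidence. No libraries were duplicates (chi-square per degree of freedom 44.8 to 77.8). The labels call the replicates separate samples but name no shared day or tank, so p-values measure the spread between pooled libraries. Alternatives were DESeq2 1.42.0, RLE, upper-quartile and total-count scaling, TMM without mitochondrial genes, no filter, a minimum of 10 counts, a block for the replicate number, and the omission of each library in turn.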

Additional observations from a re-analysis of the deposited data

How the results depend on the processing

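For 23 subunit genes, 391 alternative values were computed: 349 kept their direction and side of the threshold, 34 changed sign, 6 lost and 2 gained the call. Total-count scaling, which moved the median of all genes to 0.38, turned 14 of them: psma3 0.14, psmb2 0.21, psmb5 0.12, psmb6 0.093, psmb7 0.10, psmc2 0.31, psmc5 0.042, psmd11b 0.22, psme1 0.25, psme2 0.0080, psme3 0.21, psme4b 0.028, psmg1 0.18 and psmg2 0.11. It also moved the core median to 0.19 and the regulatory one to 0.22. Leaving out 1 library gave ranges of -0.31 to 0.54 for psma6l, -0.27 to 0.35 for psmb8a, -0.24 to 0.86 for psmb9a, -0.083 to 0.99 for psmb10, -0.29 to 0.62 for psmb12, -0.43 to 0.0010 for psmb5, -0.20 to 0.038 for psmc2 and -0.39 to 0.018 for psme1. Over the same fits 0 to 1 subunit genes were called (0 to 1 regulatory, 0 core, 0 inducible), and the medians were -0.34 to -0.07 (core), -0.23 to -0.02 (regulatory) and -0.23 to 0.74 (inducible). The gene called was psmf1 without replicate 3 of tbx20-overexpressing hearts, and psmd11a under total-count scaling. Leaving out both libraries of a number was chosen after seeing the data. Without number 1, psma6l was at -0.16, psmb8a at -0.14 and psmd11a at -0.027. Without number 2, 0 subunit genes and 0 regulatory ones were called, and psmb2 was at 0.012, psmc2 at 0.080, psmd11b at 0.019, psme1 at 0.13 and psme3 at 0.076. Without number 3 none of the 23 genes changed sign, psme4a was the 1 gene called, and the inducible median was 0.13. Outside the 23, psmc4, psmd4b and psmd8 turned from below 0 to 0.035, 0.0085 and 0.021. The cause of these shifts was not tested.

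With the replicate block 1 subunit gene was called, psme4a, and 0 had an adjusted p under 0.05, as without it. The medians were -0.16 (core), -0.13 (regulatory) and 0.31 (inducible), and the block changed no other call among the subunit genes.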

Other observations

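The row in capitals PSMG4, which the symbol rule does not take, had 8.14, 8.89 and 6.79 CPM in tbx20-overexpressing libraries, against 8.32, 10.02 and 11.8 CPM in control libraries, and was lower in all 3 pairs with overlapping groups. Its log2 fold change was -0.34 (SE 0.25, adjusted p = 0.777 in edgeR). That of PSMB10 was -0.03 (SE 0.32) and that of the second psma2-like row, si:rp71-45k5.4, was -0.15 (SE 0.22). Of 12 endothelial marker genes 3 were called lower (cdh5, pecam1 and egfl7), against 5.56% of all genes. The 12 summed to 1041 to 1205 CPM in tbx20-overexpressing and 1308 to 1503 CPM in control libraries. The log2 fold change was above 0 in 3 of the 12, highest in kdr (0.26), and in pair 2, 6 of the 12 were higher. Of 13 epicardium and fibroblast markers 3 were called higher (tcf21, wt1b and fn1a), against 3.27% of all genes. The 13 summed to 16384 to 21040.1 CPM in tbx20-overexpressing and 11430.2 to 15481 CPM in control libraries. With the replicate block 4 endothelial markers were called lower and 5 epicardium and fibroblast markers higher, where 14.1% of all genes were called in either direction. None of 12 proliferation markers or 8 erythrocyte marker genes was called, against 8.83% of all genes. The highest proliferation marker, mki67, was at 0.499, and 1 of the 12 had an unadjusted p under 0.05 in edgeR, against 9.23% of all genes. Of the 8 erythrocyte markers 0 were higher in pair 1, 2 in pair 2 and 8 in pair 3. They summed to 486, 1357 and 2404 CPM in tbx20-overexpressing libraries, against 1064, 1843 and 996 CPM in control libraries. Their part in the inducible genes was not tested.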
